A study of Mus musculus with 6 samples.

Results

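Transcript levels of 50 lysosome genes were examined in CD4 T cells sorted from the livers of mice with diet-induced metabolic dysfunction-associated steatohepatitis (MASH). The set was given as a list of gene symbols and held lysosomal membrane proteins, acid hydrolases, lipid-handling proteins, the receptors that sort hydrolases, and subunits of the proton pump. All 50 symbols were present among the 28430 in the count table, of which 27108 had a count in any library and 15694 were abundant enough to be tested. Of the 50, 48 were tested. Cd63, a tetraspanin of lysosomes and other endosomes, had 1 read in all libraries together, and Sort1, a sorting receptor for hydrolases, had 4, all of them in WT libraries, and neither was tested. No count in the libraries labelled dKO allows up to 0.536, 0.506 and 0.332 CPM (3 reads per library, counting error only) for these genes in dKO 1, dKO 2 and dKO 3.

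The dKO mice were Nr4a1 fl/fl Nr4a2 fl/fl Cd4Cre animals, in which Cre recombinase driven by the Cd4 promoter acts in T cells, including the CD8 lineage that passes through a Cd4-expressing stage in the thymus. They were compared with WT mice. Both groups had been fed a choline-deficient, high-fat, low-methionine diet, and the study asked how the Nr4a nuclear receptors of CD4 T cells bear on this liver disease. Each group held 3 libraries, described in the study's methods as independent biological replicates, and the ages of the animals were not stated.

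Lysosomes are acidic organelles that degrade proteins, glycans and lipids delivered by endocytosis and autophagy. A vacuolar proton pump keeps their lumen acidic, and most soluble hydrolases reach them by a mannose 6-phosphate tag that receptors read in the Golgi. The MiT/TFE transcription factors Tfeb and Tfe3 bind a CACGTG-type element, the CLEAR element, in the promoters of many lysosome genes, and in T cells lysosomes take part in receptor turnover, nutrient sensing and the storage of secretory granules.

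Libraries labelled dKO held 5747744 to 8740564 counted reads and libraries labelled WT held 7124553 to 11078184. Levels are given as normalised CPM, the counts per 1000000 reads after correction for library composition, with SD and n = 3 unless stated otherwise. The fold change is dKO over WT on the log2 scale from edgeR's quasi-likelihood test, given ± SE. The SE and the intervals were derived from the F statistic of that test. A gene is called at an adjusted p under 0.05 over all 15694 tested genes. The targeted genes did not fall in the libraries labelled dKO. Nr4a2 had 478, 541 and 392 CPM in dKO against 160, 286 and 235 CPM in WT (1.05 ± 0.21, adjusted p = 0.0308), and Nr4a1 had 713, 1037 and 642 CPM in dKO against 330, 679 and 821 CPM in WT (0.39 ± 0.37, adjusted p = 0.650). Nr4a3, which was not targeted, had 514, 481 and 209 CPM in dKO against 153, 172 and 213 CPM in WT (1.16 ± 0.37, adjusted p = 0.170). The call of Nr4a2 was lost without dKO 1, dKO 2 or WT 3 (adjusted p up to 0.128). Reads from parts of these genes outside the deleted exons are still counted, and no source used here names the exons that the floxed alleles remove, so gene-level counts neither support nor contradict the labels. Groups are therefore named as labelled throughout.

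The T cell markers of the sort were abundant in every library. The 9 measured CD4 T cell markers (Cd3e, Cd4, Cd28 and others) summed to 4092 to 4372 CPM in dKO and 3947 to 4321 CPM in WT, and 0 of the 9 were called by edgeR, with 2 at an unadjusted p under 0.05. Many lysosome genes are also abundant in macrophages, so macrophage markers were examined. The 18 macrophage and Kupffer cell markers summed to 9.79 to 11.6 CPM in dKO and 13.1 to 17.6 CPM in WT, and 6 of them (Adgre1, Vsig4, Marco, C1qa, C1qb and Trem2) had no read in any library. Of the 3 that were tested, Fcer1g was lower in dKO (−2.72 ± 0.53, adjusted p = 0.0186), a call lost without dKO 1 or dKO 2 (adjusted p = 0.11 and 0.0927). Fcer1g rests on 3, 2 and 8 reads in dKO against 14, 54 and 42 in WT. Itgam was at 0.76 (adjusted p = 0.328) and Apoe at −0.24 (adjusted p = 0.634). The 8 dendritic cell markers summed to 20.6 to 25.1 CPM in dKO and 29.6 to 55.9 CPM in WT, and 2 of the 6 tested fell in dKO (Itgax and Xcr1). Itgax had 1 read in each dKO library against 15, 18 and 25 in WT. At an unadjusted p under 0.05 by edgeR, H2-Ab1 (−2.43) was also lower and Zbtb46 (0.67) was higher. The 7 B and plasma cell markers summed to 5.18 to 11.2 CPM in dKO and 5.52 to 33.7 CPM in WT, where Jchain in WT 2 alone gave 30.1 CPM. Cd79b, the B cell marker that was tested, had 4.47, 4.72 and 7.63 CPM in dKO against 2.62, 1.61 and 3.28 CPM in WT (1.17 ± 0.32, adjusted p = 0.0699). The 5 NK cell markers summed to 75.4 to 89.1 CPM in dKO and 56.6 to 87.6 CPM in WT, and the 7 measured neutrophil and monocyte markers to 194 to 204 CPM in dKO and 99.9 to 208 CPM in WT, with 0 of 3 tested called by edgeR in either list. Most of the NK sum was Eomes (62.0, 77.6 and 66.2 CPM in dKO against 40.3, 64.6 and 38.7 CPM in WT). Most of the neutrophil and monocyte sum was Ccr2 (160, 174 and 160 CPM in dKO against 76.3, 119 and 181 CPM in WT). S100a8, Ly6g and Mpo had at most 1 read per library. At an unadjusted p under 0.05, Klrb1c (−1.17) and Klre1 (−0.73) of the NK list were lower and Eomes (0.52) higher, and Cxcr2 (0.61) of the neutrophil list was higher. The 10 hepatocyte markers summed to 22.2 to 33.4 CPM in dKO and 8.01 to 17.1 CPM in WT, most of it Trf, and 0 of the 3 tested were called by edgeR, with 1 at an unadjusted p under 0.05. Both CD8 T cell markers rose in dKO. Cd8a and Cd8b1 together had 296 to 338 CPM in dKO and 199 to 237 CPM in WT (0.62 ± 0.11, adjusted p = 0.00866, for Cd8a and 0.55 ± 0.12, adjusted p = 0.0236, for Cd8b1). Without dKO 1 neither was called (adjusted p = 0.055 and 0.109), and Cd8b1 was not called without dKO 3 or WT 3 either. Foxp3, the defining factor of regulatory T cells and chosen after its values were seen, also rose in dKO, with 224, 186 and 173 CPM against 66.0, 110 and 85.2 CPM in WT (1.16 ± 0.18, adjusted p = 0.00954), and kept its call with each library left out. The part of CD8 T cells, regulatory T cells, hepatocyte RNA and these other cells in the levels below was not tested. In bulk samples, fewer cells of a type and less RNA per cell cannot be told apart.

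Promoters are shown for 4 genes because the lysosome set is known for its CLEAR elements. Of the 50 genes, 41 had an entry in the RefSeq promoter table (GRCm38.p6). Those not entered were Ctsb, Ctsh, Hgsnat, Npc1, Asah1, Sort1, M6pr, Cln8 and Atp6v1h. The 250 bases before the transcription start are printed for Ctss and Lamp2, genes that rose in dKO, and for Lamp1 and Ctsd, genes not called, with every CACGTG in capitals. The windows are chr3:95526536-95526785 on the plus strand for Ctss, chrX:38456461-38456710 on the minus strand for Lamp2, chr8:13158911-13159160 on the plus strand for Lamp1 and chr7:142387828-142388077 on the minus strand for Ctsd. Starts are those of RefSeq. The GENCODE M21 annotation, used below for gene positions, has Ctsd reach base 142388038, so most of its window lies inside that annotated gene.
Ctss: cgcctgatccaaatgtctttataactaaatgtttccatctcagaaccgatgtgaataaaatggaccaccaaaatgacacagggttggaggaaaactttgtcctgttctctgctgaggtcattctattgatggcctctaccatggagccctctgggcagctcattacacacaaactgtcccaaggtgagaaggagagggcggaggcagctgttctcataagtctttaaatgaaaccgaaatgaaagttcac
Lamp2: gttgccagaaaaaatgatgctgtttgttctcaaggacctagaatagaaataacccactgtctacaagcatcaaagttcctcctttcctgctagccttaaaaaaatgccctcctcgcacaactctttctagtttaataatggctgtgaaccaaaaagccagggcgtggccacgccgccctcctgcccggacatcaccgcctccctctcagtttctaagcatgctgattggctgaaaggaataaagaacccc
Lamp1: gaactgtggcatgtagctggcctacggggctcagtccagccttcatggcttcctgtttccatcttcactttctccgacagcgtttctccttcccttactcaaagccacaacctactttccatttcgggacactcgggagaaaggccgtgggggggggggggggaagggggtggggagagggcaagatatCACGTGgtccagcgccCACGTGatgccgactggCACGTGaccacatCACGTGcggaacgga
Ctsd: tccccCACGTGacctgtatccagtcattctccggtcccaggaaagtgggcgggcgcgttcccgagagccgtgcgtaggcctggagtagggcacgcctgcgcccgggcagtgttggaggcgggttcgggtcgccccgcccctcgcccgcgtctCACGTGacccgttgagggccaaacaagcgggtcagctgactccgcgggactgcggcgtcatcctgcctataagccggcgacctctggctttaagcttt
Lamp1 held 4 copies of CACGTG, the nearest starting 15 bases before the transcription start, and Ctsd held 2, while Ctss and Lamp2 held none.

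Motifs were searched on both strands in 300 bases of 1 promoter per gene, from 250 before to 50 after the start. For genes with more than 1 listed promoter, the first listed was searched. Tfeb and Acp5 had 3 listed, and Ctsa, Psap and Tfe3 had 2, so their other starts were not searched. CACGTG was found in 13 of the 40 tested members with an entry (32.5%), against 9.71% of the 11741 tested genes with one. Its longer form GTCACGTG, which contains CACGTG and is part of the CLEAR element, was found in 9 of 40 (22.5%) against 3.88%, in Lamp1, Ctsd, Gla, Glb1, Naglu, Sgsh, Mcoln1, Igf2r and Atp6v0d1. The palindrome TCACGTGA, which also contains CACGTG, was found in 6 of 40 (15%) against 1.76%. TGACTCA, the AP-1 element, was found in 4 of 40 (10%) against 3.68%, in Cd68, Glb1, Neu1 and Psap. The 13 members with CACGTG had a median log2 fold change of 0.03 and 0 of them were called, by edgeR, DESeq2 or limma-voom, with 1 (Gaa) at an unadjusted p under 0.05 by edgeR. The 27 without it had a median of 0.27, with 2 called, Lamp2 and Ctss. Among all tested genes with an entry, 20 of the 1140 with CACGTG and 244 of the 10601 without it were called higher, with medians of 0.0053 and −0.01. At these shares, counts of 0 of 13 and 2 of 27 are too small to set the 2 kinds of promoter apart. A match describes the sequence and is not evidence of binding.

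Of the 48 tested lysosome genes, 3 rose in dKO. They were Ctsh and Ctss, cysteine cathepsins that cut proteins in endosomes and lysosomes, and Lamp2, a heavily glycosylated protein of the lysosomal membrane. These 3 are 6.25% of the tested members, against 2.15% of all tested genes called higher and 3.31% called in either direction. By edgeR 0 members were called lower, against 1.17% of all tested genes, and 1 (Man2b1) was lower at an unadjusted p under 0.05, against 8.71%. DESeq2 and limma-voom also called 0 lower. At an unadjusted p under 0.05, 15 members (31.2%) were higher in dKO, against 10.5% of all tested genes. The 3 dKO values lay above the 3 WT values for 14 members (29.2%), against 13.2% of all tested genes, and below them for 1 member (2.08%), against 11.7%. Taking both directions, 25.0% of all tested genes had groups without overlap. The fold change was above 0 for 32 members (66.7%), against 49.2% of all tested genes, and below 0 for 16, against 50.8%, with a median of 0.12 over the members and −0.01 over all tested genes. Summed over the 50 genes, the level was 2978 ± 37.5 CPM in dKO and 2614 ± 108 CPM in WT, and the lowest dKO library (2935 CPM) was above the highest WT library (2738 CPM). The members were chosen with earlier results of these libraries known, so these shares are descriptions and carry no test of the set.

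**Figure D1:**
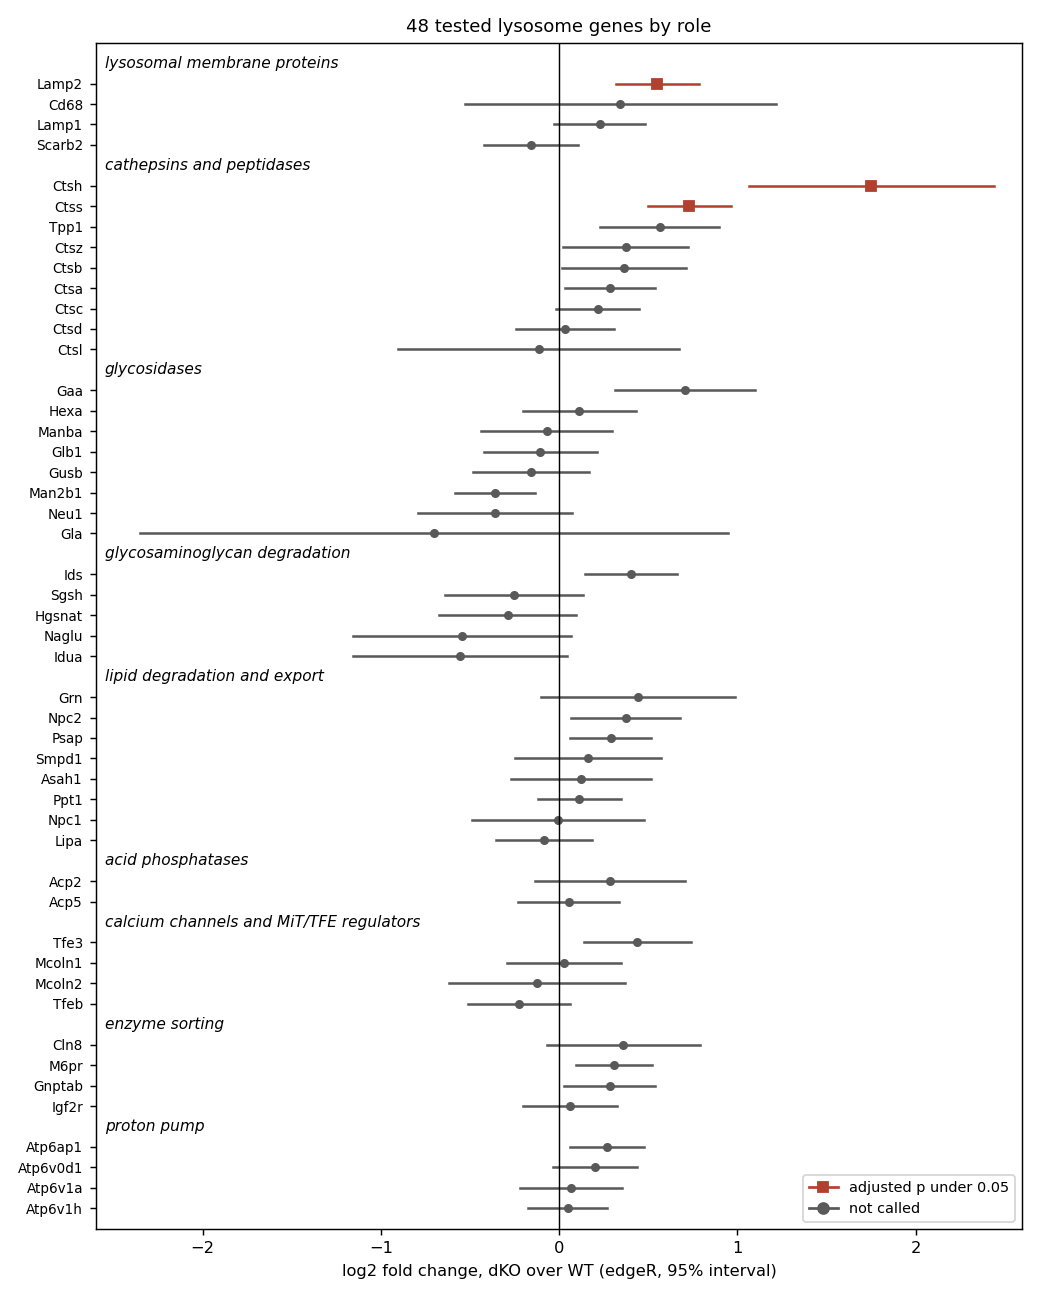
Log2 fold change of each of the 48 tested lysosome genes, dKO over WT (x axis), by role (y axis), with the 95% interval derived from edgeR's F statistic. Red squares mark the 3 genes with an adjusted p under 0.05 (Lamp2, Ctsh and Ctss), and the intervals of 32 genes include 0.

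Libraries of the dKO group were closer to each other than WT libraries were. The coefficient of variation within the group had a median over the 48 members of 9.24% in dKO and 13.4% in WT, and was largest for Cd68 in dKO (41.6%) and for Gla in WT (63.7%). The lowest of the 6 values was in WT 1 for 18 members and in WT 2 for 16, and the highest was in dKO 1 for 13 and in dKO 3 for 11. WT 3 held the highest value of 8 members and the lowest of 3. Over all tested genes, the lowest value was in WT 1 for 20.3% and in WT 2 for 19.9%, and the highest was in dKO 1 for 20.6% and in dKO 3 for 12.7%.

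**Figure D2:**
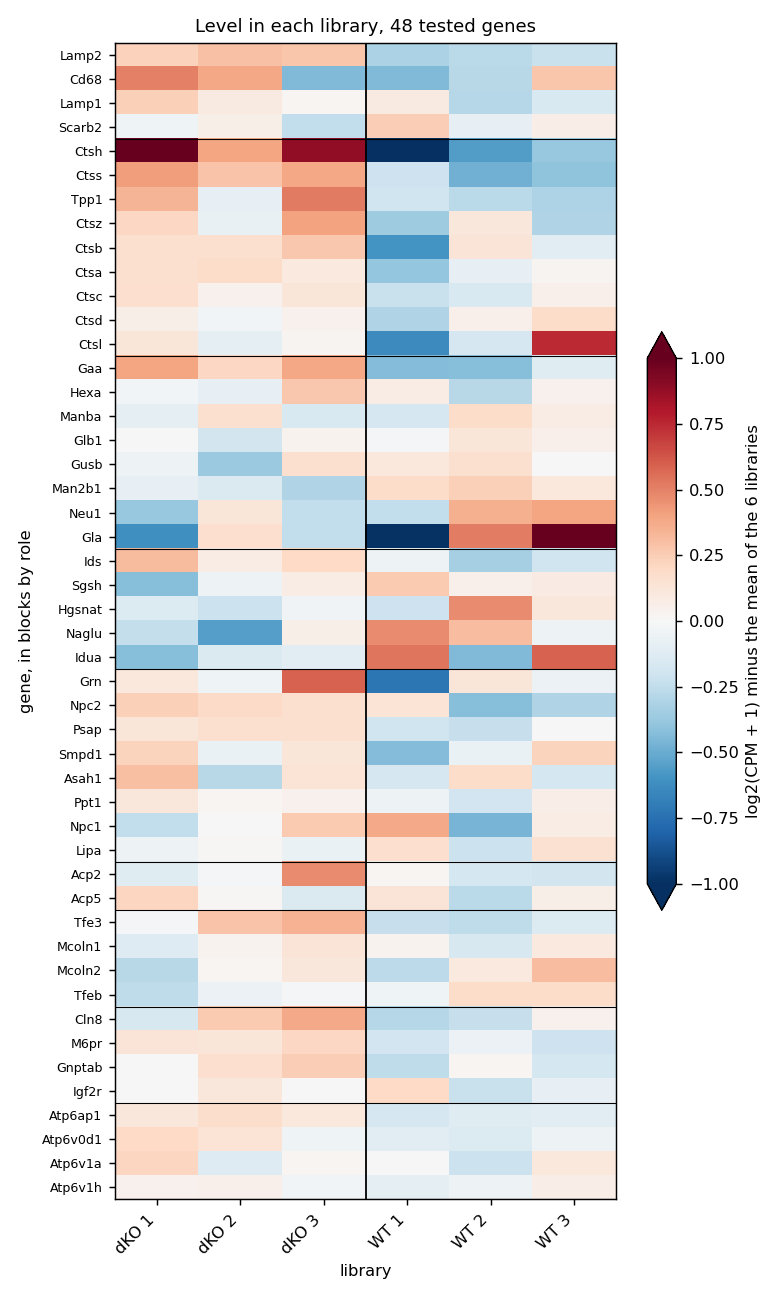
Level of each tested lysosome gene (y axis, in blocks by role) in each library (x axis, dKO left of the line and WT right of it), as log2(CPM + 1) minus the mean over the 6 libraries, with colours saturating at −1 and 1. Ctsh, Ctss and Lamp2 are red in the 3 dKO libraries and blue in the 3 WT libraries, and the lowest value lies in WT 1 or WT 2 for 34 of the 48 genes.

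The proteases, the largest role with 9 genes, held the most genes called higher in dKO. Of the 9 cathepsins and peptidases, 2 rose by edgeR (22.2%, against 2.15% of all tested genes) and 0 fell. At an unadjusted p under 0.05, 6 were higher (66.7%, against 10.5%). The fold change was above 0 for 8 (88.9%, against 49.2%), and the median over the 9 genes was 0.37. Their summed level was 935 ± 40.2 CPM in dKO and 750 ± 91.8 CPM in WT. Ctss lies on chromosome 3 (GRCm38, 95526786 to 95556403, plus strand) and encodes cathepsin S, known in antigen-presenting cells for cutting the invariant chain of MHC class II. Ctss had 194, 177 and 190 CPM in dKO against 125, 103 and 109 CPM in WT. Every dKO library was above every WT library, and the level was 1.66-fold higher (0.73 ± 0.11, adjusted p = 0.00385). This call was kept when any 1 library was left out, with an adjusted p of at most 0.0299. Ctsh, on chromosome 9 (90054152 to 90076089, plus strand), encodes cathepsin H, an aminopeptidase. Its level was 11.1, 6.92 and 10.2 CPM in dKO, from 62, 41 and 92 reads, against 1.38, 3.10 and 3.65 CPM in WT, from 10, 25 and 39 reads. The groups did not overlap, and Ctsh showed the largest fold change of the 48 members (3.37-fold, 1.75 ± 0.32, adjusted p = 0.0121). It rests on few reads, and without dKO 1 the adjusted p was 0.0749.

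Ctsd, which encodes the aspartic protease cathepsin D, was the most abundant protease by CPM and did not differ beyond its spread. It had 262, 246 and 258 CPM in dKO against 204, 259 and 285 CPM in WT (0.03 ± 0.13, adjusted p = 0.922), and 34.4% of its annotated exon bases are shared with another gene. Tpp1, a tripeptidyl peptidase, had 36.8, 27.2 and 41.8 CPM in dKO against 25.0, 23.8 and 23.1 CPM in WT (0.57 ± 0.15, adjusted p = 0.0645). The groups did not overlap, though dKO 2 was near the WT libraries. Tpp1 was called without dKO 2 (adjusted p = 0.0366). Ctsb, a cysteine cathepsin with both endopeptidase and exopeptidase activity, had 225, 225 and 244 CPM in dKO against 133, 220 and 186 CPM in WT (0.37 ± 0.16, adjusted p = 0.236), and WT 1 was far below the other libraries. The fold changes of Ctsa, the protective protein of Neu1 and Glb1, Ctsz, a carboxypeptidase, and Ctsc, which activates granule serine proteases, lay between 0.22 and 0.37 with adjusted p of 0.1998 to 0.293. Ctsl, cathepsin L, was at −0.11 (adjusted p = 0.902), with a spread in WT from 6.90 to 19.6 CPM.

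**Figure D3:**
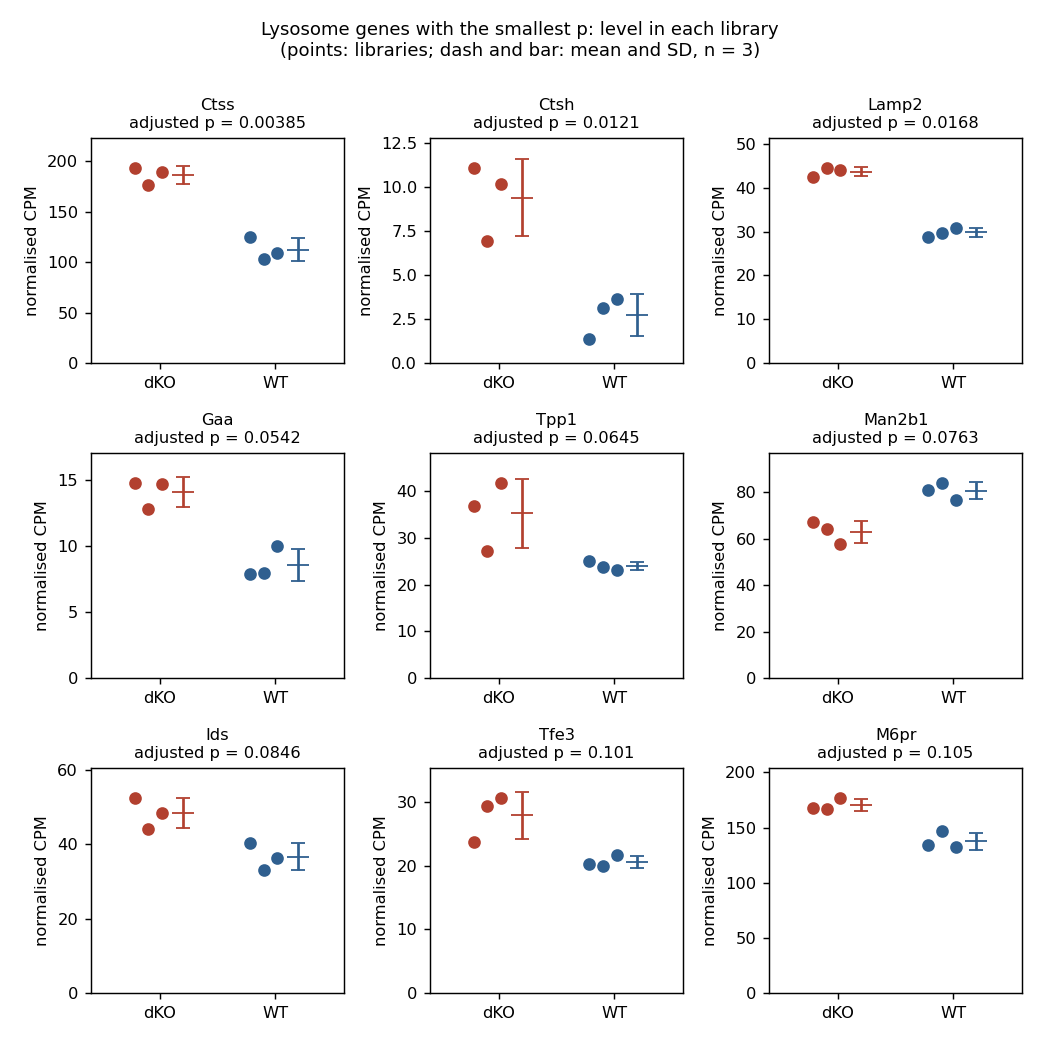
Normalised CPM (y axes, starting at 0) of the 9 lysosome genes with the smallest p in each library of dKO (left, red) and WT (right, blue), with mean and SD (n = 3). The groups do not overlap in any panel, Man2b1 is the gene that is lower in dKO, and Ctss, Ctsh and Lamp2 have an adjusted p under 0.05.

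Among the lysosomal membrane proteins, Lamp2 rose. Lamp2 is on chromosome X (38401357 to 38456454, minus strand), and its product takes part in the fusion of autophagosomes with lysosomes and in chaperone-mediated autophagy. It had 42.5, 44.5 and 44.0 CPM in dKO against 28.9, 29.8 and 30.8 CPM in WT. The spread was small in both groups, and the level was 1.47-fold higher in dKO (0.55 ± 0.11, adjusted p = 0.0168). With dKO 1, dKO 2 or dKO 3 left out, the fold change was still at least 0.54, but the adjusted p was 0.0689, 0.0737 and 0.0528 in that order, above the threshold. Lamp1, the related membrane protein used to mark lysosomes and released cytotoxic granules, had 103, 92.8 and 88.6 CPM in dKO against 92.9, 71.5 and 78.3 CPM in WT. The groups overlapped, and Lamp1 was not called (0.23 ± 0.12, adjusted p = 0.318). The interval of Lamp1 ran from −0.03 to 0.48 and that of Lamp2 from 0.32 to 0.78, and the difference between these genes was not tested. Scarb2, the membrane receptor that carries glucocerebrosidase to lysosomes, was at −0.16 (adjusted p = 0.530). Cd68, a lysosomal membrane protein of macrophages, had 4.11, 3.71 and 1.66 CPM in dKO against 1.66, 1.98 and 3.37 CPM in WT (0.34 ± 0.40, adjusted p = 0.704), and its groups overlapped at this low level.

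The glycosidases, which remove sugars from glycoproteins, glycolipids and glycogen, had fold changes of both signs. By edgeR 0 of 8 were called in either direction, against 3.31% of all tested genes. The fold change was above 0 for 2 (25%, against 49.2% of all tested genes) and below 0 for 6. In each direction 1 (12.5%) was past an unadjusted p of 0.05, against 10.5% higher and 8.71% lower of all tested genes. Their summed level was 244 ± 12.7 CPM in dKO and 292 ± 44.8 CPM in WT. Gaa, the acid alpha-glucosidase that breaks down glycogen, had 14.8, 12.8 and 14.7 CPM in dKO against 7.87, 7.93 and 10.01 CPM in WT (0.71 ± 0.18, adjusted p = 0.0542). Its groups did not overlap, and it was called when all genes with a count were tested. Man2b1, the lysosomal alpha-mannosidase, ran the other way, with 67.0, 64.1 and 57.7 CPM in dKO against 81.0, 84.1 and 76.7 CPM in WT (−0.36 ± 0.10, adjusted p = 0.0763). Man2b1 was the sole tested member whose 3 dKO values all lay below the 3 WT values. Gla, alpha-galactosidase A, had the lowest fold change of the members and a wide spread in WT, with 22.0, 38.5 and 28.6 CPM in dKO against 16.7, 49.1 and 77.5 CPM in WT (−0.70 ± 0.62, adjusted p = 0.629). Without WT 3, its fold change was −0.15, above that of Idua in the same setting (−0.36). Neu1, a sialidase, was at −0.36 (adjusted p = 0.347) and became called lower without WT 1 (adjusted p = 0.0296). Glb1 and Gusb, the beta-galactosidase and beta-glucuronidase, Manba, the beta-mannosidase, and Hexa, the alpha chain of beta-hexosaminidase, lay between −0.16 and 0.11 with adjusted p of at least 0.632.

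Among enzymes of glycosaminoglycan breakdown the signs were also mixed, with 0 of 5 called by edgeR, against 3.31% of all tested genes. At an unadjusted p under 0.05, 1 was higher (20%, against 10.5% of all tested genes). The fold change was below 0 for 4 of 5, against 50.8% of all tested genes. Ids, the iduronate sulfatase, had 52.5, 44.2 and 48.4 CPM in dKO against 40.4, 33.1 and 36.4 CPM in WT (0.40 ± 0.12, adjusted p = 0.0846). Its groups did not overlap, and it was called without WT 1 (adjusted p = 0.0452). Idua, the iduronidase that acts on the same glycans, had 8.04, 9.96 and 10.3 CPM in dKO against 16.6, 7.93 and 17.2 CPM in WT (−0.56 ± 0.27, adjusted p = 0.298). WT 2 was as low as the dKO libraries, and without it Idua was called lower (adjusted p = 0.0389). Naglu, Sgsh and Hgsnat, which act on heparan sulfate, had fold changes of −0.54, −0.25 and −0.29, and none of these was called.

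Among proteins of lipid degradation and export, 0 of 8 were called by edgeR, against 3.31% of all tested genes in either direction. At an unadjusted p under 0.05, 2 were higher (25%, against 10.5% of all tested genes), and 6 of the 8 were above 0 (75%, against 49.2%). Their summed level was 727 ± 9.39 CPM in dKO and 601 ± 55.5 CPM in WT. Psap, the precursor of the saposins that present sphingolipids to hydrolases, had 236, 243 and 242 CPM in dKO against 189, 185 and 217 CPM in WT (0.29 ± 0.10, adjusted p = 0.149). Npc2, which binds cholesterol in the lysosomal lumen, had 318, 307 and 301 CPM in dKO against 297, 201 and 218 CPM in WT (0.37 ± 0.14, adjusted p = 0.162). The groups of Npc2 did not overlap, but WT 1 came close to the dKO libraries, and Npc2 was called when WT 1 was left out (adjusted p = 0.00792). Npc1, the membrane transporter that takes cholesterol from Npc2, was at −0.01 ± 0.22, and its direction turned in 6 of the 14 alternative settings. Grn, progranulin, was at 0.44 ± 0.24 (adjusted p = 0.361), with 24.3, 21.8 and 34.3 CPM in dKO against 13.3, 24.5 and 21.5 CPM in WT. The lipid hydrolases Smpd1, Asah1, Ppt1 and Lipa lay between −0.08 and 0.16, with adjusted p of at least 0.632. Acp5, the tartrate-resistant acid phosphatase, was abundant and overlapped, with 201, 174 and 156 CPM in dKO against 189, 143 and 180 CPM in WT (0.05 ± 0.13, adjusted p = 0.873). The other acid phosphatase, Acp2, had 12.1, 13.2 and 18.9 CPM in dKO against 13.5, 11.7 and 11.6 CPM in WT (0.29 ± 0.19, adjusted p = 0.464).

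The transcription factors that act on CLEAR elements had opposite signs, and neither was called. Tfe3 had 23.8, 29.4 and 30.7 CPM in dKO against 20.3, 20.0 and 21.7 CPM in WT (0.44 ± 0.14, adjusted p = 0.101), with no overlap between groups. Tfeb had 22.5, 26.0 and 26.9 CPM in dKO against 26.2, 31.0 and 31.0 CPM in WT (−0.22 ± 0.13, adjusted p = 0.383), and its groups overlapped. The difference between Tfe3 and Tfeb was not tested, and transcript levels do not report the nuclear entry by which these factors are known to be controlled. The calcium channels Mcoln1 and Mcoln2, which release calcium from endosomes and lysosomes, were at 0.03 and −0.12, with adjusted p of 0.946 and 0.827. Of these 4 genes, 0 were called by edgeR, against 3.31% of all tested genes. At an unadjusted p under 0.05, 1 (Tfe3) was higher (25%, against 10.5%).

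Genes for the sorting of hydrolases and for the proton pump all had fold changes above 0 where tested, against 49.2% of all tested genes. By edgeR 0 of the 8 were called, against 3.31% of all tested genes. At an unadjusted p under 0.05, 3 were higher, 2 of 4 sorting genes (50%) and 1 of 4 pump genes (25%), against 10.5% of all tested genes. M6pr, the smaller mannose 6-phosphate receptor, had 168, 167 and 177 CPM in dKO against 134, 147 and 133 CPM in WT (0.31 ± 0.10, adjusted p = 0.105), with no overlap. Gnptab, part of the enzyme that builds the mannose 6-phosphate tag, had 46.1, 52.1 and 55.1 CPM in dKO against 38.5, 46.7 and 40.8 CPM in WT (0.28 ± 0.12, adjusted p = 0.204), and WT 2 overlapped dKO 1. Igf2r, the larger mannose 6-phosphate receptor, was at 0.06 (adjusted p = 0.838), and Cln8, which carries hydrolases out of the endoplasmic reticulum, was at 0.36 (adjusted p = 0.352). The summed level of the sorting genes was 304 ± 11.7 CPM in dKO and 256 ± 6.28 CPM in WT. For the proton pump, Atp6ap1, an accessory subunit, had 66.8, 69.9 and 66.3 CPM in dKO against 54.7, 56.5 and 57.3 CPM in WT (0.27 ± 0.10, adjusted p = 0.147). Atp6v0d1, a subunit of the membrane sector, had 53.8, 51.5 and 45.2 CPM in dKO against 43.1, 42.3 and 44.9 CPM in WT (0.20 ± 0.11, adjusted p = 0.337). Neither gene overlapped between groups, though dKO 3 and WT 3 of Atp6v0d1 were close. Atp6v1a and Atp6v1h, subunits of the sector that splits ATP, were at 0.07 and 0.05 and overlapped. Outside the 50 genes, 17 further pump subunits were tested, with a median of 0.02 and 11 above 0 (64.7%). The 19 further subunits listed summed to 1146 ± 59.7 CPM in dKO and 1147 ± 11.7 CPM in WT.

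**Figure D4:**
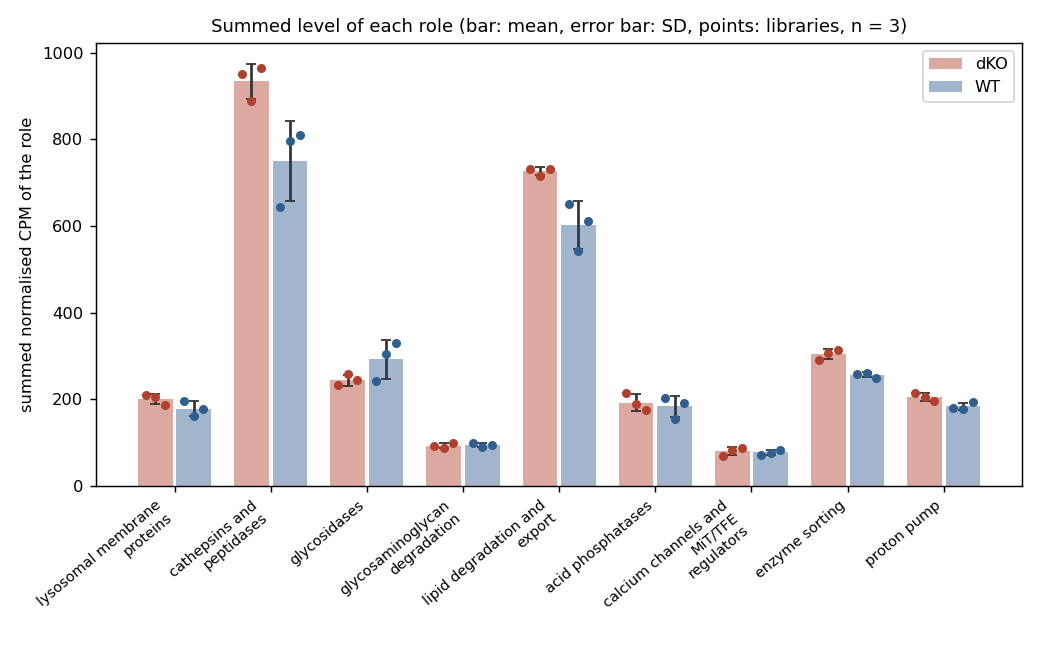
Summed normalised CPM of the genes of each role (x axis) in dKO (left bar of each pair, red) and WT (right bar, blue), where the bar is the mean, the error bar the SD and the points the libraries (n = 3). Cathepsins and peptidases summed to 935 CPM in dKO and 750 CPM in WT, and the 3 dKO points lie above the 3 WT points for the cathepsins, the lipid proteins, the sorting genes and the proton pump.

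Per length of annotated exons, the levels of the members ranged widely in both groups. Ctss had the highest level in dKO, at 137 CPM per kb in dKO and 82.9 in WT. Ctsd had 109 CPM per kb in dKO and 106 in WT, where it was the highest, Psap had 87.6 in dKO and 71.7 in WT, and Acp5 had 87.4 in dKO and 84.1 in WT. Npc2 followed with 56.8 CPM per kb in dKO and 43.8 in WT. Ctsh, despite its fold change, was among the lowest at 2.09 CPM per kb in dKO and 0.602 in WT, and Lamp2 had 4.57 in dKO and 3.12 in WT. Exon lengths were those of the GENCODE M21 annotation of GRCm38, so levels per length are approximate for the annotation the authors used. Exons of 18 members share bases with another annotated gene, over 10% of the exon bases in 7 of them, and no source used here says whether counting used strand. Lamp2, Ctsh and Ctss share none.

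The wider lysosomal system was described with 194 further genes in 6 lists. Of these, 191 were in the table and 185 were tested, of which 5 rose (2.70%, against 2.15% of all tested genes), 2 fell (1.08%, against 1.17%) and 109 were above 0 (58.9%, against 49.2%), with a median fold change of 0.04. The shares called were close to those of all tested genes, so the called genes below are described one by one and not as a group. Rragd, one of the Rag GTPases that recruit mTORC1 to lysosomes, had 15.7, 19.7 and 16.4 CPM in dKO against 9.80, 10.8 and 6.55 CPM in WT (0.94 ± 0.21, adjusted p = 0.0272). Fnip1, a partner of folliculin in the same nutrient-sensing pathway, had 111, 93.3 and 77.2 CPM in dKO against 64.3, 55.5 and 65.7 CPM in WT (0.60 ± 0.13, adjusted p = 0.0319). These were the called genes among the 26 tested of nutrient sensing, where 11 were above 0. Ulk1, the kinase that starts autophagy, had 45.9, 47.1 and 34.2 CPM in dKO against 22.6, 28.3 and 27.3 CPM in WT (0.69 ± 0.15, adjusted p = 0.0250), and was the called gene among 38 tested autophagy genes, with 23 above 0.

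Abcb9, a lysosomal peptide transporter, had 35.5, 36.6 and 34.7 CPM in dKO against 24.3, 22.9 and 25.5 CPM in WT (0.55 ± 0.12, adjusted p = 0.0233). Atp6ap2, a second accessory subunit of the proton pump, had 70.0, 79.0 and 62.0 CPM in dKO against 48.7, 52.1 and 50.2 CPM in WT (0.48 ± 0.11, adjusted p = 0.0379), and was the called gene among 17 tested further pump subunits. Its call was lost with limma-voom (adjusted p = 0.053) and with the replicate number as a block (adjusted p = 0.0518), and that of Fnip1 with limma-voom (adjusted p = 0.0509). With DESeq2 9 of the wider genes rose, against 509 of all tested genes, and with limma-voom 3 did, against 344. Leaving out dKO 1, dKO 2 or WT 3 left 0 of the wider genes called higher by edgeR. In these fits 90, 137 and 206 of all tested genes were called higher, in that order. Over the 6 settings with 1 library left out, Ulk1 was called in 3, Rragd, Fnip1 and Atp6ap2 in 2 each, and Abcb9 in 1. The fallen genes held their calls with each library left out. Cln3, a lysosomal membrane protein whose human loss causes a childhood neurodegeneration, had 11.1, 12.8 and 13.3 CPM in dKO against 47.2, 60.1 and 56.0 CPM in WT (−2.13 ± 0.14, adjusted p = 1.38e-05). Ggh, the gamma-glutamyl hydrolase of folates, had 16.1, 16.2 and 13.5 CPM in dKO against 28.0, 26.8 and 26.2 CPM in WT (−0.83 ± 0.14, adjusted p = 0.00765). Of the 42 tested genes of endolysosomal trafficking, 0 were called by edgeR, against 3.31% of all tested genes. At an unadjusted p under 0.05, 6 were higher (14.3%, against 10.5%) and 3 lower (7.14%, against 8.71%). The median fold change of these 42 genes was 0.01.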

How the data were processed

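Libraries were prepared from total RNA of sorted hepatic CD4 T cells with a NEBNext kit that fragments its input, and single-end reads were sequenced. The tested values are the raw read counts that the authors deposited for each gene symbol. The submitters' processing notes name cutadapt, Bowtie2 and the builds mm10 and GRCm39. For the annotation, the counter and the use of strand, no source used here gives a name or setting. The authors' normalised values, their summary columns and the mapping table were not used.

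Groups were taken from the sample labels, with 3 libraries each. Symbols with few reads were removed by filterByExpr (minimum count 10, minimum total count 15), which left 15694, and TMM scaling (trimmed mean of M values) gave factors of 0.964 to 1.04. The dKO libraries were set against the WT libraries in edgeR 4.0.16 under R 4.3.3 (quasi-likelihood F-test, two-sided, robust dispersion), with group as the sole term and Benjamini-Hochberg adjustment over all tested genes at 0.05. The biological coefficient of variation was 14.5%. The SE is the absolute log2 fold change divided by the square root of F, and the 95% intervals use the t distribution. Alternatives used other scalings, no filter, DESeq2 1.42.0, limma-voom (limma 3.58.1), a non-robust dispersion, the replicate number as a block, and each library left out. For the marker genes named, these were added after seeing the data. All pairs of libraries differed by more than counting error (chi-square per degree of freedom 6.37 to 36.9). With totals of 5747744 to 11078184 reads, genes under about 1 CPM rest on few reads.

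Members, roles and lists were chosen with earlier results of these data known. Members with an adjusted p under 0.05, the 2 smallest p and the highest level in each role, and Lamp1, Lamp2, Tfeb, Tfe3 and Cd68 are given with the value of every library. Up to 4 called genes are named from each wider list, and some further members are named with their values for their spread. The deposited values carry no coordinates, so gene positions come from GENCODE M21 (GRCm38) and promoters from RefSeq (GRCm38.p6), matched by symbol.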

Additional observations from a re-analysis of the deposited data

How the results depend on the processing

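Of the 48 tested members, 37 kept their direction in all 14 alternative settings. Testing all 27108 symbols with a count, which included all 50 members, called 756 genes higher and 560 lower. In that setting 5 members were higher (Gaa and Tpp1 added), and 12 wider lysosomal genes were higher and 5 lower. DESeq2 called 509 genes higher and 9 wider genes higher, and limma-voom called 344 genes higher and 3 wider genes higher. Upper quartile scaling called 247 genes lower and 4 wider genes lower. Leaving out 1 library at a time gave 90 to 447 genes higher, 42 to 378 lower, 1 to 5 members higher, 0 to 1 lower, 0 to 6 wider genes higher and 2 to 4 lower. Fewer libraries enter these fits. Without dKO 1, Ctss was the sole member called. The member median ran from 0.10 to 0.19. Fold changes near 0 turned. Npc1 was 0.045 with limma-voom and 0.012 with the replicate block, and Mcoln1 was −0.0028 with upper quartile scaling. With 1 library left out, the range was −0.10 to 0.14 for Ctsd, −0.39 to 0.44 for Ctsl, −0.021 to 0.18 for Hexa, −0.17 to 0.0087 for Manba, −0.21 to 0.19 for Npc1, −9.2e-05 to 0.36 for Smpd1, −0.059 to 0.13 for Acp5, −0.048 to 0.095 for Mcoln1, −0.28 to 0.041 for Mcoln2, −0.028 to 0.18 for Igf2r and −0.023 to 0.15 for Atp6v1a. The cause was not tested. Replicate numbers in the titles gave no visible pairing of the libraries. Correlations of deviations were 0.0452, 0.0213 and −0.0789 for equal numbers, and −0.0879 to 0.0866 for unequal ones. Such values cannot tell whether libraries were prepared in pairs. With the number as a block, 307 genes rose and 184 fell, 3 members rose and 0 fell, and the member median was 0.12. Atp6ap2 lost its call with the block (adjusted p = 0.0518). Ctsh, Cd68 and Naglu each rest on under 100 reads in every library.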

Other observations

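Some hydrolases and membrane proteins outside the 50 genes had different means in dKO and WT without passing the adjusted test. Lgmn, the asparaginyl endopeptidase legumain, averaged 11.3 CPM in dKO and 4.28 CPM in WT (1.39 ± 0.48, adjusted p = 0.170). Ctsw, a cathepsin of cytotoxic lymphocytes, ran the other way, with 152 CPM in dKO and 196 CPM in WT (−0.37 ± 0.12, adjusted p = 0.105). Of the 32 tested genes of this list, 0 rose and 1 fell (Ggh) by edgeR, while 10 (31.2%) were higher and 3 (9.38%) lower at an unadjusted p under 0.05, against 10.5% and 8.71% of all tested genes, and the summed level was 1279 ± 11.0 CPM in dKO and 1268 ± 83.3 CPM in WT. Laptm5, a lysosomal membrane protein of lymphocytes, was the most abundant transcript of the membrane list, with 1367 CPM in dKO and 1107 CPM in WT (0.30 ± 0.12, adjusted p = 0.198). Lyst, whose loss enlarges lysosomes and granules, averaged 179 CPM in dKO and 280 CPM in WT (−0.64 ± 0.16, adjusted p = 0.0549). These genes were named after their values were seen, and none of the 4 that miss the threshold here is shown to differ or to be equal between groups.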
